A study of Homo sapiens with 18 samples.

Results

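Epithelial and mesenchymal identity was followed here through 10 genes: the keratins KRT7, KRT8, KRT18 and KRT19, the adhesion proteins EPCAM, CDH1 and CDH2, the intermediate filament protein VIM, and the transcriptional repressors ZEB1 and SNAI2. They were found in the count table by symbol, with no threshold on their values, as 10 of the 57736 genes in the count table, and all 10 were among the 17317 genes with enough counts to be tested. Epithelial cells are held together by E-cadherin (CDH1) junctions and carry keratin filaments made of a type II keratin (KRT7, KRT8) paired with a type I keratin (KRT18, KRT19). Mesenchymal cells carry vimentin (VIM) filaments and often N-cadherin (CDH2), and ZEB1 and SNAI2 (also called SLUG) are known for repressing CDH1 and other epithelial genes during epithelial to mesenchymal transition. Ovarian carcinoma cells are known to keep features of both states.

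A1847, an established human high-grade serous ovarian cancer cell line, was profiled by 3′ mRNA sequencing in 18 libraries, 3 in each of 6 groups. Cells labelled wild type for CARM1 and XBP1 (WT), cells in which CARM1 was knocked out (koCARM1) and cells in which XBP1 was knocked down (shXBP1) were each grown under the control condition (ctr) or with tunicamycin (TM) at 5 µg/ml for 8 h. CARM1 is a protein arginine methyltransferase and XBP1 is a transcription factor of the unfolded protein response, the programme that cells switch on when misfolded proteins collect in the endoplasmic reticulum. Tunicamycin blocks N-glycosylation and so causes such stress. The knockout came from a lentiviral CRISPR vector with 1 guide and the knockdown from 1 short hairpin RNA, both in puromycin-selected cells. Whether koCARM1 is 1 clone and whether WT carried a control vector were not stated in the sources used here. The study describes its experiments in general as independently repeated, but the labels do not say that the replicate libraries came from separate cultures, and if they did not, p-values measure the spread between these samples, which may be technical.

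The libraries held 9367462 to 13917212 counts, and the koCARM1 libraries stood apart from all others. Replicates correlated with each other at Pearson r = 0.986 to 0.989 across genes, WT with shXBP1 libraries at 0.961 to 0.987, and koCARM1 with the other libraries at 0.73 to 0.775. CARM1 was read at a mean of 162 CPM (counts scaled to the size of the library) in WT and 74.2 in koCARM1 under control condition, XBP1 at 45.9 in WT and 25.3 in shXBP1, and a 3′ read need not cover the edited site, so the CARM1 level is no check of the edit itself. The chaperone gene HSPA5, a standard readout of this stress, rose with tunicamycin by 3.08 (WT), 3.77 (koCARM1) and 2.98 (shXBP1) on the log2 scale. Of the defining genes of serous ovarian carcinoma, MUC16 had 0 counts in every library, and PAX8 had 0 to 2 counts in each WT and shXBP1 library but 465 to 840 in each koCARM1 library. The 12 ovarian carcinoma markers, which include KRT7, KRT8, KRT18 and EPCAM, summed to 312 to 334 CPM in WT, 2693 to 2785 in koCARM1 and 132 to 146 in shXBP1 libraries under control condition. KRT18 alone was at a mean of 260, 1481 and 115 CPM there, KRT8 at 58.4, 734 and 19.2, and KRT7 at 412 in koCARM1. These sums are thus mostly the levels of members followed below, and are no separate observation. The fibroblast list summed to 1336 to 1438 CPM in WT and 3129 to 3342 in koCARM1 under control condition, but most of its tested genes went the other way: of 9 tested, FN1, SPARC and COL1A1 were higher in koCARM1 and COL1A2, COL3A1, PDGFRA, THY1 and DCN lower, with a median log2 difference of −4.57 (−1.71 with genes at the floor set to their bound). The leukocyte list summed to 1.32 to 3.25 and 9.78 to 10.98 (CD68 at 60 to 76 counts, PTPRC at 0 to 2 and CD3E at 0 in the koCARM1 ctr libraries), the mesothelial list to 3.95 to 5.15 and 12.8 to 15.6, and the endothelial list stayed at or below 0.376 CPM in every library. Of the 3 leukocyte markers tested, 2 were higher in koCARM1 than in WT under control condition and 0 lower (median log2 difference 3.55). In that comparison 74.4% of all genes were called (37.5% higher, 36.9% lower). The part of these differences in the results below was not tested, and in such bulk samples fewer cells of a type and less RNA per cell cannot be told apart.

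The regions just upstream of the start sites were looked up for the 10 genes, because members that moved together might share short motifs there. RefSeq windows (GRCh38.p14, 250 bases before a start site, read in the direction of the gene) were at hand for KRT8, VIM, CDH2 and ZEB1, 11 windows in all. The 3 printed here are those of a keratin, of the mesenchymal filament gene and of ZEB1, and capitals mark the E-box CAGGTG or CACCTG, the hexamer that ZEB and SNAIL family repressors are known to bind.
KRT8, chr12:52926470-52926719, minus strand: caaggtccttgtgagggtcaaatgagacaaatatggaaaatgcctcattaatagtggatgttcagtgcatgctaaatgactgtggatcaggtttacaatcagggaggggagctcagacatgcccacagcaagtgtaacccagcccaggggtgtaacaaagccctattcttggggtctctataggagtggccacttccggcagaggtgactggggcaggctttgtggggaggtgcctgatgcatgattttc
VIM, chr10:17227991-17228240, plus strand: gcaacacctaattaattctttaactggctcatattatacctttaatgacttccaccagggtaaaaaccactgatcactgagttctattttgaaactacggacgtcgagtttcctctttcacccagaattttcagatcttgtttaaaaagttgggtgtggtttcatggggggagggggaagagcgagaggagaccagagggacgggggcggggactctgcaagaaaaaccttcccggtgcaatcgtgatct
ZEB1, chr10:31318167-31318416, plus strand: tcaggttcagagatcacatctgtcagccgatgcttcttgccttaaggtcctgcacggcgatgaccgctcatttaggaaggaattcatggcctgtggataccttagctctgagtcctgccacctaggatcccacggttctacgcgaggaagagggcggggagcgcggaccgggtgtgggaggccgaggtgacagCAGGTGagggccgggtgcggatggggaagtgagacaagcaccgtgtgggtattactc
In the ZEB1 window shown the E-box lies 57 bases before the start, and another of the 7 ZEB1 windows held 2 copies, 85 and 242 bases before its start. The windows of KRT8, VIM and CDH2 held none, and ACGTCA or TGACGT, the core to which XBP1 and ATF6 are known to bind, was in none of the 11. Of all 35116 windows of this length in the table, 17.5% held the E-box and 7.1% the second motif on either strand, and neither result says anything about binding in these cells. For KRT8 only the start site of the window printed above was at hand. Any other start of that gene, such as one facing KRT18, was not looked at, nor was it tested which start these cells use.

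In koCARM1 cells under control condition, KRT7, KRT8, KRT18, EPCAM, CDH1, CDH2 and VIM were higher than in WT, and KRT19, ZEB1 and SNAI2 were lower. Thus 7 of 10 genes rose and 3 fell by edgeR's quasi-likelihood test with Benjamini-Hochberg adjustment at a false discovery rate of 5%, in a comparison in which 74.4% of all tested genes were called (37.5% higher, 36.9% lower). The median log2 fold change of the 10 was 2.62, against −0.03 over all genes, and the ranges of the 2 groups did not overlap for any of the 10, as for 75.9% of all genes. Under tunicamycin 6 were higher and 3 lower (75.2% of all genes called, 38.4% higher and 36.8% lower), with CDH1 not called, a median of 1.54 and again no overlap for any of the 10 (77.1% of all genes). With a background this wide, the number of members called says little, and the levels of each gene are therefore given in turn.

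**Figure D1:**
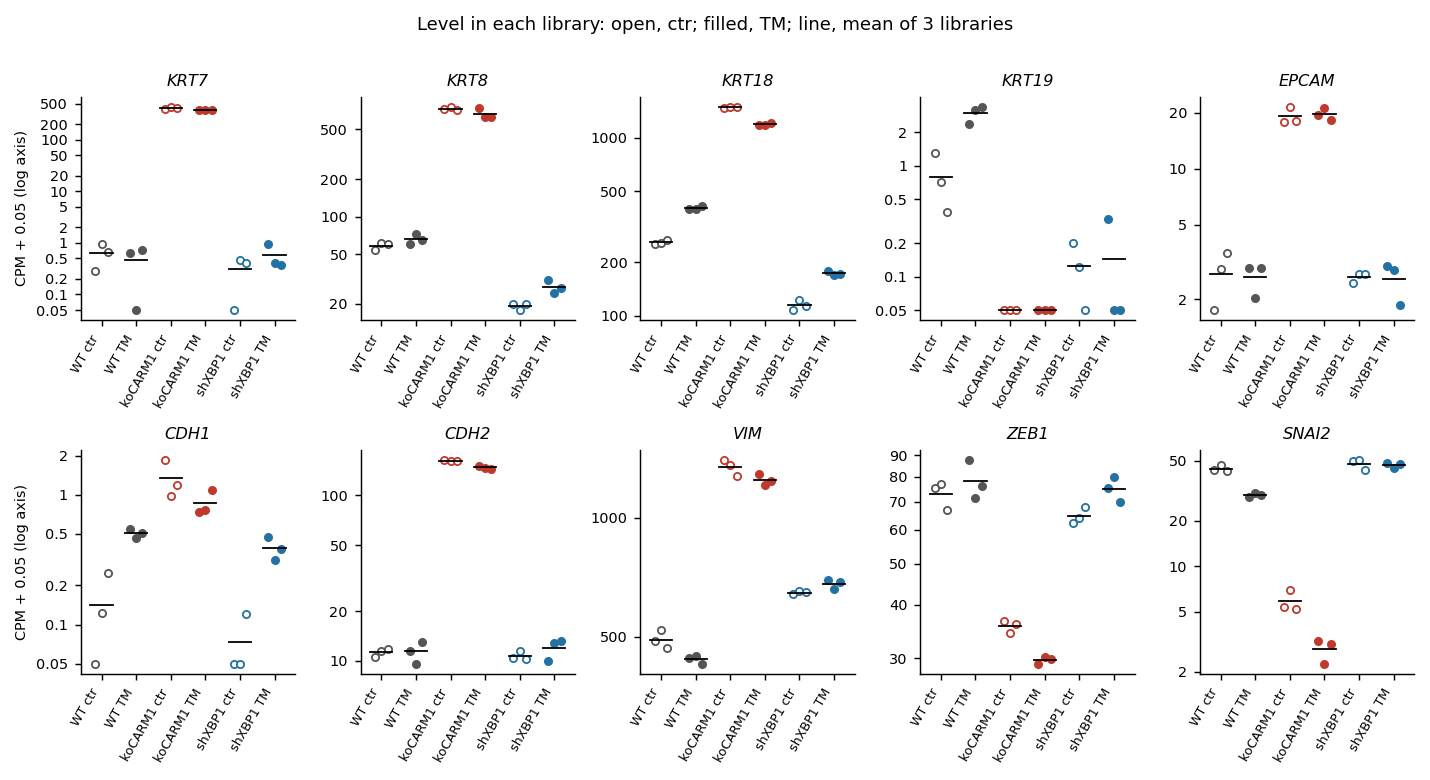
Level of each of the 10 genes in the 18 libraries, as CPM plus 0.05 on a log axis, with 6 groups along the horizontal axis (open circles ctr, filled circles TM, line the mean of 3 libraries). KRT7, KRT8, KRT18, EPCAM, CDH2 and VIM sit higher in every koCARM1 library than in any other, ZEB1 and SNAI2 lower, and KRT19 is at 0 in all 6 koCARM1 libraries.

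KRT7 (ENSG00000135480, GRCh37 chr12:52626304-52645970), the type II keratin that marks simple ductal and Müllerian epithelia, was close to the detection limit outside koCARM1. The WT libraries held 3, 12 and 9 counts under control condition and 7, 0 and 9 under tunicamycin, and the shXBP1 libraries 0, 6 and 5, then 13, 4 and 4. The koCARM1 libraries held 5065, 5166 and 3576 counts, then 4298, 4674 and 4627, or 393, 433 and 409 CPM, then 369 ± 1.67 CPM (mean ± SD, n = 3 here and for every group). No koCARM1 library came near any other. The ratio of summed counts per depth to WT was 711 (95% counting interval 478 to 1110) under control condition and 861 (530 to 1506) under tunicamycin, and the fitted log2 difference under control condition was 9.41 ± 0.12 (± SE throughout, adjusted p = 7.99e-18). The same gene did not pass between shXBP1 and WT (adjusted p = 0.499 and 0.831), at counts too low to show a small difference. Intervals of this kind cover counting error only.

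KRT8 (ENSG00000170421, chr12:53290971-53343738), the main type II keratin of simple epithelia, differed in opposite directions in the modified cells. It was read at 54.1, 61.1 and 59.9 CPM in WT, at 732, 759 and 710 in koCARM1 and at 19.94, 17.79 and 19.99 in shXBP1 under control condition. With tunicamycin the values were 59.8, 72.0 and 65.3 in WT, 742, 627 and 626 in koCARM1 and 30.9, 24.3 and 27.0 in shXBP1. Within each condition the 3 cell types did not overlap, koCARM1 being highest and shXBP1 lowest. The difference from WT was 3.61 ± 0.06 on the log2 scale in koCARM1 (adjusted p = 3.37e-17; 3.34 ± 0.08 under tunicamycin, adjusted p = 9.24e-15) and −1.61 ± 0.08 in shXBP1 (adjusted p = 3.05e-08; −1.25 ± 0.09, adjusted p = 1.94e-07).

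KRT18 (ENSG00000111057, chr12:53342655-53346690), the type I partner of KRT8 that lies head to head with it and overlaps its 5′ end, followed the same order. Its levels were 253, 258 and 267 CPM in WT, 1466, 1493 and 1483 in koCARM1 and 108, 123 and 113 in shXBP1 under control condition, and 396, 398 and 416, then 1184, 1185 and 1213, then 179, 171 and 173 under tunicamycin. All 6 groups were separate from each other, in the order koCARM1 ctr, koCARM1 TM, WT TM, WT ctr, shXBP1 TM and shXBP1 ctr. The koCARM1 difference from WT was 2.47 ± 0.04 under control condition (adjusted p = 7.98e-17) and 1.57 ± 0.04 under tunicamycin (adjusted p = 2.15e-14), and the shXBP1 difference was −1.19 ± 0.06 (adjusted p = 2.28e-08) and −1.21 ± 0.05 (adjusted p = 6.42e-10). Processed copies of both genes took few reads: 67 KRT18 pseudogene entries held 288 counts in all, against 130939 for KRT18, and 51 KRT8 entries held 40, against 55875. Whether counting used the strand was not stated, so reads in the shared 5′ stretch could go to either gene.

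KRT19 (ENSG00000171345, chr17:39679869-39684560), a type I keratin of ductal epithelia, went against the other 3 in koCARM1. Its counts were 16, 9 and 5 in WT under control condition and 28, 38 and 44 under tunicamycin, and 0 in all 6 koCARM1 libraries. A count of 0 allows up to 3 counts per library, so KRT19 was at least 2.70-fold lower in koCARM1 under control condition and at least 12-fold lower under tunicamycin (adjusted p = 0.000911 and 4.94e-07). In shXBP1 it was low as well, at 2, 1 and 0 counts and then 4, 0 and 0. The shXBP1 to WT ratio under control condition was 0.0996 (counting interval 0.0194 to 0.320, 3 counts against 30, adjusted p = 0.0483), a call that ended when WT ctr replicate 1 or 2 or any shXBP1 ctr replicate was left out (adjusted p 0.0725 to 0.222). Under tunicamycin 4 counts stood against 110, a 27.8-fold lower level (10.5 to 104, adjusted p = 8.37e-05). KRT19 was thus lower than in WT in both modified lines, whereas KRT8 and KRT18 were higher in one and lower in the other.

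Of the 33 keratin genes looked up, 8 had enough counts to be tested. In koCARM1 against WT under control condition 6 were higher (KRT7, KRT8, KRT10, KRT17, KRT18 and KRT80), KRT19 was lower and KRT15 did not pass. Of all genes, 74.4% were called there (37.5% higher, 36.9% lower). KRT80 went from 0 counts in every WT library to 118 to 166, KRT17 from 0 to 1 to 33 to 73, and KRT10, a keratin of differentiated epidermis, changed by 0.85 ± 0.08 on the log2 scale (adjusted p = 1.39e-07). In shXBP1 none of the 8 was higher and KRT8, KRT18 and KRT19 were lower, with KRT10 added under tunicamycin (−0.32 ± 0.07, adjusted p = 0.00489). The share of all genes called between shXBP1 and WT was 5.1% under control condition (2.07% higher, 3.03% lower) and 15.5% under tunicamycin (6.99% higher, 8.55% lower), against 3 and 4 of these 8 keratins.

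Over the 10 genes, shXBP1 had VIM higher and KRT8, KRT18 and KRT19 lower than WT under control condition, and SNAI2 higher as well under tunicamycin. EPCAM, CDH1, CDH2, ZEB1 and KRT7 passed in neither condition. Thus 4 and 5 of the 10 were called, against 5.1% and 15.5% of all genes. The KRT19 call under control condition ended when any of several libraries was left out, as given above. The median log2 difference of the 10 was −0.65 and −0.05, against −0.003 and 0.0008 over all genes. The value of −0.65 lies between KRT7 (−1.11, at few counts) and ZEB1 (−0.18), neither of them called. The groups did not overlap for 4 and 5 genes, against 23.6% and 31.5% of all genes. Both sets of comparisons share the WT libraries.

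**Figure D2:**
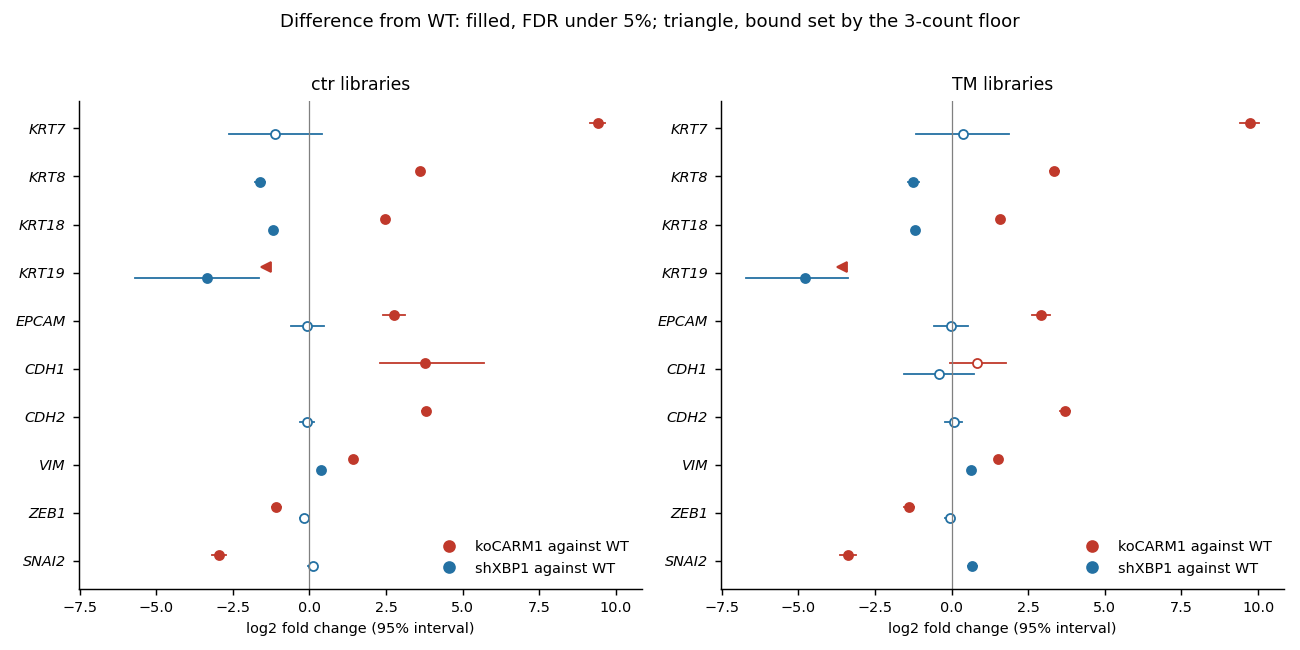
Difference from WT in koCARM1 and shXBP1 for the 10 genes on the log2 scale, with 95% intervals, under control condition and tunicamycin (filled, adjusted p below 5%; triangle, a bound for KRT19 in koCARM1 from the floor of 3 counts). KRT19 and CDH1 are drawn as ratios of summed counts with counting intervals, and CDH1 in shXBP1 ctr is left out because both groups were at the floor. KRT8 and KRT18 lie right of 0 in koCARM1 and left of 0 in shXBP1.

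EPCAM (ENSG00000119888, chr2:47572297-47614740), an adhesion molecule of simple epithelia and a routine carcinoma marker, was at a few CPM in WT and shXBP1 and higher in koCARM1. It was read at 1.70, 2.87 and 3.48 CPM in WT, 17.77, 21.45 and 17.96 in koCARM1 and 2.41, 2.69 and 2.67 in shXBP1 under control condition. Under tunicamycin the levels were 2.91, 1.98 and 2.88, then 19.4, 21.1 and 18.3, then 2.96, 2.81 and 1.82. The lowest koCARM1 library was far above the highest of the others, and the 4 remaining groups overlapped. The koCARM1 difference was 2.76 ± 0.19 (adjusted p = 1.9e-09) and 2.92 ± 0.15 under tunicamycin (adjusted p = 1.56e-10), while shXBP1 differed from WT by −0.07 (95% interval −0.60 to 0.47, adjusted p = 0.942).

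CDH1 (ENSG00000039068, chr16:68771195-68869440), which encodes E-cadherin, was barely detected in any group. Its counts were 0, 1 and 3 in WT, 23, 11 and 10 in koCARM1 and 0, 0 and 1 in shXBP1 under control condition. Under tunicamycin they were 6, 5 and 6, then 8, 9 and 13, then 6, 3 and 4. The koCARM1 to WT ratio was 13.6 (counting interval 4.95 to 52.1, 44 counts against 4, adjusted p = 0.000253) under control condition, and 1.79 (0.954 to 3.45, adjusted p = 0.131) under tunicamycin. At these counts no gene-level statement on shXBP1 under control condition is possible, since it and WT were both at or under 3 counts in every library.

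CDH2 (ENSG00000170558, chr18:25512843-25757910), which encodes N-cadherin, the mesenchymal and neural cadherin, was higher in koCARM1 in both conditions. It was read at 10.4, 11.5 and 11.7 CPM in WT, 163, 161 and 162 in koCARM1 and 10.4, 11.4 and 10.2 in shXBP1 under control condition, and at 11.5, 9.56 and 13.0, then 151, 147 and 144, then 9.86, 12.7 and 13.1 under tunicamycin. The koCARM1 libraries lay apart from the other 12, which overlapped. The difference was 3.80 ± 0.07 (adjusted p = 1.44e-16) and 3.70 ± 0.08 under tunicamycin (adjusted p = 5.97e-15), against −0.08 and 0.06 in shXBP1 (adjusted p = 0.781 and 0.853). E-cadherin and N-cadherin transcripts were therefore both higher in koCARM1 under control condition.

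Of 18 cadherin genes looked up, 8 were tested. In koCARM1 under control condition 7 were higher (CDH1, CDH2, CDH3, CDH4, CDH13, CDH15 and CDH24) and CDH10 was lower. Of all genes, 74.4% were called in that comparison (37.5% higher, 36.9% lower), a share that applies to the catenins below as well. CDH4, the retinal cadherin, had 0 to 2 counts in WT libraries and 323 to 404 in koCARM1, and CDH10 had 528 to 736 in WT and 0 in koCARM1. P-cadherin (CDH3) differed by 1.09 ± 0.15 (adjusted p = 8.83e-06). None of the 8 was called between shXBP1 and WT by edgeR in either condition. Among the 6 catenins, which tie cadherins to actin, α-catenin CTNNA1 (1.42 ± 0.05) and β-catenin CTNNB1 (0.57 ± 0.05) were among 4 that were higher in koCARM1, and plakoglobin JUP (−1.05 ± 0.07) among 2 that were lower.

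VIM (ENSG00000026025, chr10:17270240-17279592), the intermediate filament protein of mesenchymal cells, was higher than in WT in both modified lines. It was read at 489, 519 and 468 CPM in WT, 1399, 1363 and 1281 in koCARM1 and 640, 652 and 649 in shXBP1 under control condition. Under tunicamycin it stood at 442, 448 and 428, then 1290, 1213 and 1240, then 695, 663 and 688. Every koCARM1 library was above every shXBP1 library, and every shXBP1 library above every WT library. The koCARM1 difference was 1.41 ± 0.05 (adjusted p = 3.85e-13) and 1.51 ± 0.04 under tunicamycin (adjusted p = 4.44e-14), and the shXBP1 difference was 0.39 ± 0.05 (adjusted p = 0.00019) and 0.64 ± 0.04 (adjusted p = 6.25e-08). In shXBP1 the rise in VIM thus stood beside lower KRT8, KRT18 and KRT19, while in koCARM1 it stood beside higher KRT7, KRT8 and KRT18.

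Of the other intermediate filament genes, 10 were tested with VIM among them. In koCARM1 under control condition 5 were higher (VIM, PRPH, INA, NEFH and LMNA) and 4 lower (NES, SYNM, LMNB1 and BFSP1). Of all genes, 74.4% were called in that comparison (37.5% higher, 36.9% lower). Nestin (NES), a filament protein of progenitor and mesenchymal cells, fell by 3.37 on the log2 scale, from 614 to 61.6 CPM (adjusted p = 2.48e-17). Lamin A/C (LMNA) rose by 2.48, from 69.0 to 396 CPM (adjusted p = 5.28e-16).

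ZEB1 (ENSG00000148516, chr10:31607424-31818742), the zinc finger repressor of CDH1 and of epithelial splicing factors, was lower in koCARM1. It was read at 75.3, 77.0 and 66.8 CPM in WT, 36.5, 34.3 and 36.0 in koCARM1 and 62.2, 63.9 and 68.0 in shXBP1 under control condition, and at 87.4, 71.2 and 76.2, then 29.1, 30.1 and 29.9, then 75.5, 79.9 and 69.6 under tunicamycin. The koCARM1 libraries lay below all others. The difference was −1.08 ± 0.07 (adjusted p = 1.84e-09) and −1.39 ± 0.08 under tunicamycin (adjusted p = 3.53e-10). shXBP1 differed from WT by −0.18 (adjusted p = 0.158) and −0.06 (adjusted p = 0.68), though without WT ctr replicate 3 the first reached −0.24 (adjusted p = 0.0374). The antisense gene ZEB1-AS1 was also lower in koCARM1, with differences of −1.89 and −1.73 on the log2 scale, and held 637 counts in all against 13749 for ZEB1.

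SNAI2 (ENSG00000019549), the SNAIL family repressor, showed the largest fall among the 10 that could be fitted with counts in every group. It was read at 43.3, 46.7 and 42.5 CPM in WT, 5.35, 6.95 and 5.15 in koCARM1 and 49.4, 50.1 and 43.4 in shXBP1 under control condition, and at 28.7, 30.3 and 29.4, then 3.17, 2.22 and 3.02, then 48.3, 44.9 and 47.2 under tunicamycin. Under control condition WT and shXBP1 overlapped, and under tunicamycin every shXBP1 library was above every WT library. The koCARM1 difference was −2.96 ± 0.11 (adjusted p = 1.8e-12) and −3.39 ± 0.13 (adjusted p = 4.03e-12). In shXBP1 the difference was 0.10 (adjusted p = 0.54) and, under tunicamycin, 0.67 ± 0.07 (adjusted p = 1.28e-05).

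The repressors did not move as a block in koCARM1. Of 13 transcription factors known to drive epithelial to mesenchymal transition, 9 were tested, and under control condition 2 were higher and 5 lower (median −0.89; 74.4% of all genes called). SNAI1, the paralogue of SNAI2, was read at 0.694 ± 0.213 CPM in WT and 7.08 ± 1.41 in koCARM1 (3.29 ± 0.28, adjusted p = 2.97e-08). ZEB2, the paralogue of ZEB1, went from 0.958 ± 0.441 to 28.0 ± 1.60 CPM (4.83 ± 0.19, adjusted p = 3.32e-12). The helix-loop-helix factors TWIST1 and TCF4 went the other way, TWIST1 from 148 ± 4.08 to 21.7 ± 1.37 CPM (−2.82 ± 0.07, adjusted p = 3.97e-15) and TCF4 from 513 ± 19.5 to 9.56 ± 1.09 CPM (−5.77 ± 0.07, adjusted p = 5.33e-18). Thus SNAI2 and ZEB1 were lower where their paralogues SNAI1 and ZEB2 were higher. In shXBP1 TCF4 alone was called under control condition (−0.31 ± 0.05, adjusted p = 0.000991), and under tunicamycin SNAI2, ZEB2, TCF3 and FOXC1 were higher and TCF4 lower. These are 11.1% and 55.6% of the 9 tested, against 5.1% and 15.5% of all genes. ZEB2 was at few counts there, 3 to 5 in WT and 13 to 43 in shXBP1 libraries under tunicamycin.

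Of 18 factors known to hold the epithelial state, 8 were tested and all 8 were called in koCARM1 under control condition, where 74.4% of all genes were (37.5% higher, 36.9% lower). GRHL1, KLF4, KLF5, ESRP1, ESRP2, CDX2 and FOXA1 were higher, and ELF3, an epithelial ETS factor, was lower (−3.54 ± 0.27, adjusted p = 9.69e-09). The splicing regulators ESRP1 and ESRP2 went from 0 and 0 to 2 counts in WT libraries to 36 to 48 and 32 to 55, KLF4 from 0 to 30 to 41, and KLF5 from 3 to 7 to 609 to 873. GRHL2, OVOL1 and OVOL2, regulators often named with them, were at 0 to 3 counts in every library.

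**Figure D3:**
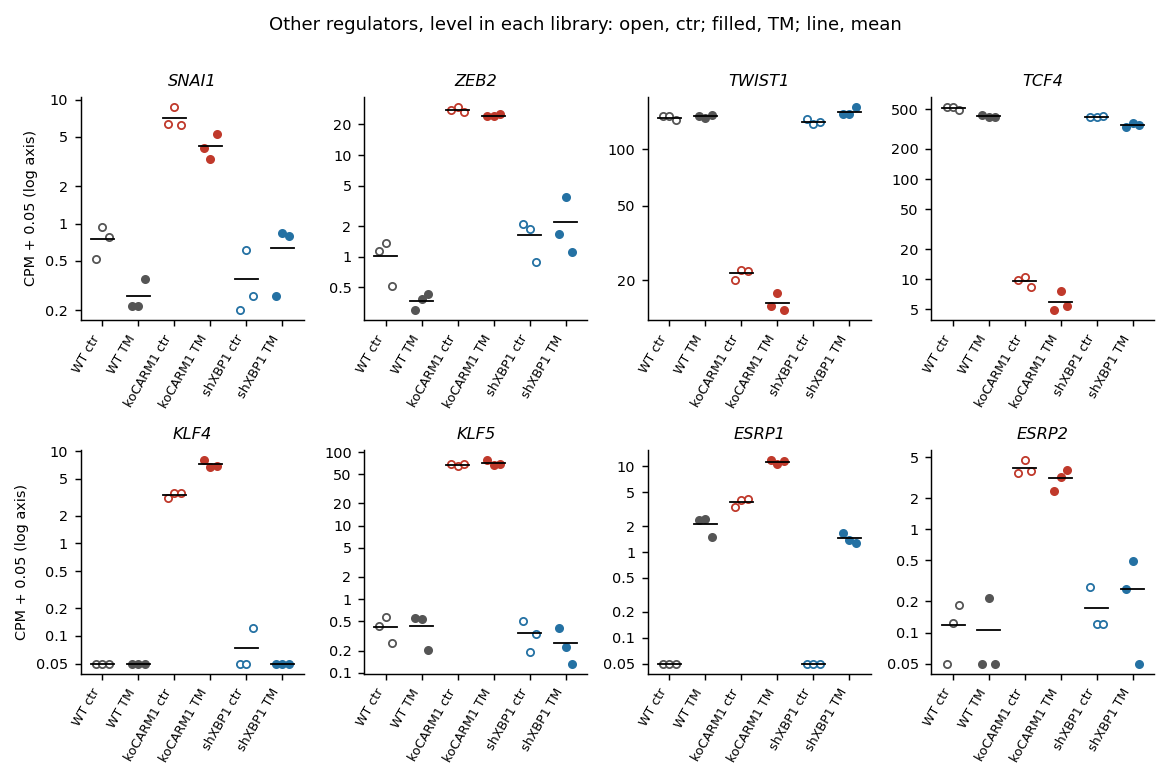
Levels of SNAI1, ZEB2, TWIST1, TCF4, KLF4, KLF5, ESRP1 and ESRP2 in the 18 libraries, as CPM plus 0.05 on a log axis over the 6 groups (open circles ctr, filled circles TM, line the mean of 3 libraries). SNAI1, ZEB2, KLF4, KLF5, ESRP1 and ESRP2 are higher in koCARM1 than in WT of the same condition, and TWIST1 and TCF4 are lower.

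Wider lists, which hold none of the 10 genes, were read in the same way. Of 71 epithelial genes 47 were tested, and in koCARM1 under control condition 33 were higher and 9 lower, with a median log2 difference of 2.56 (2.50 with genes at the floor set to their bound). Desmoplakin DSP, the plaque protein of desmosomes, had 9 to 39 counts in WT libraries and 10759 to 15709 in koCARM1, and the epithelial adaptor AP1M2 had 4 to 12 and 1994 to 2935. PARD6B, a polarity protein, was among the lower ones (−2.83 ± 0.11, adjusted p = 3.47e-12), and EPS8L1 went from 50 to 79 counts to 0 to 1. Of 64 mesenchymal genes 57 were tested, and 35 were higher and 20 lower (median 1.25). CD44, a hyaluronan receptor, had 0 to 8 counts in WT libraries and 3314 to 4931 in koCARM1, while periostin POSTN, a matrix protein, had 10272 to 11878 and 0 to 9, and the receptor PDGFRA had 2672 to 3004 and 0 to 3. Genes of both lists thus went both ways, in a comparison in which 74.4% of all genes were called.

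In shXBP1 under control condition 3 of the 47 epithelial genes were called, all lower (CLDN6, CGN and ELF3), and 16 of the 57 mesenchymal genes, 2 higher and 14 lower. These are 6.38% and 28.1% of the tested genes of each list, against 5.1% of all genes (2.07% higher, 3.03% lower). The epithelial count ranged from 1 to 5 when 1 library was left out: it was 1 without WT ctr replicate 1 or shXBP1 ctr replicate 2 or 3, and 5 without WT ctr replicate 3. The mesenchymal count was 9 without WT ctr replicate 2. The claudin CLDN6 differed by −1.68 ± 0.17 (adjusted p = 3.85e-05). The matrix proteoglycan VCAN rose by 1.55 ± 0.12 on the log2 scale (adjusted p = 1.54e-06), and the receptor tyrosine kinase AXL fell by 1.47 (adjusted p = 1.4e-06).

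**Figure D4:**
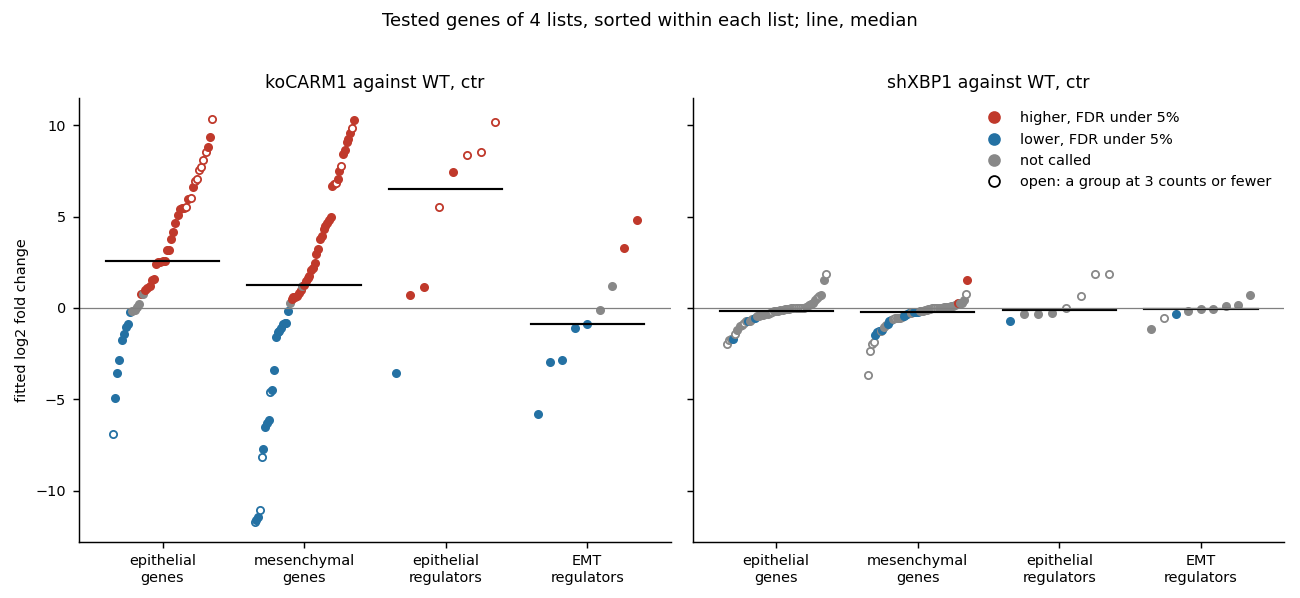
Fitted log2 difference from WT under control condition for each tested gene of 4 lists (epithelial, mesenchymal, epithelial regulators and regulators of epithelial to mesenchymal transition) in koCARM1 and shXBP1; each point is a gene, open where a group held 3 counts or fewer in every library, and the line is the median. The epithelial median is 2.56 in koCARM1, and in both lists points lie on either side of 0.

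koCARM1 and shXBP1 were also set against each other. Under control condition 7 of the 10 genes were higher in koCARM1 and 2 lower (74.5% of all genes called, 38.3% higher and 36.2% lower), with a median of 3.27, and under tunicamycin again 7 and 2 (74.6%, 38.4% higher and 36.2% lower), with a median of 2.00. The groups did not overlap for 9 of the 10 in either condition, against 76.3% and 76.8% of all genes. KRT8 differed by 5.24 ± 0.06 (adjusted p = 5.27e-18) and KRT18 by 3.68 ± 0.05 (adjusted p = 2.55e-17) under control condition. Both are wider than either line's difference from WT, which follows from the opposite directions given above. VIM differed by 1.04 ± 0.04 (adjusted p = 3.34e-12). KRT19, at 0 counts against 3 and against 4, could not be compared. The CDH1 call under tunicamycin, 30 counts against 13 (ratio 2.36, 1.19 to 4.93, adjusted p = 0.0481), was lost when any 1 of the 6 libraries was left out (adjusted p 0.0505 to 0.167).

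The response to tunicamycin was read in each of the 3 cell types. In WT, KRT18 and KRT19 were higher and VIM and SNAI2 lower after 8 h (41.9% of all genes called, 22% higher and 19.9% lower). In koCARM1 KRT7, KRT18, ZEB1 and SNAI2 were lower (39.5% of all genes called, 20.6% higher and 18.8% lower). In shXBP1, KRT8, KRT18, CDH1 and ZEB1 were higher (38.3% of all genes called, 19.2% higher and 19% lower). In each cell type the 2 groups did not overlap for 5 of the 10 genes, against 49.8%, 48.4% and 47.4% of all genes, so the members were called about as often as genes at large. Without koCARM1 TM replicate 1 the koCARM1 count was 7 rather than 4, with KRT8, CDH2 and VIM added, and without shXBP1 ctr replicate 1 or 2 the shXBP1 count was 2.

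Among the keratins, KRT18 rose in WT by 0.65 ± 0.05 (adjusted p = 3.28e-08) and in shXBP1 by 0.60 ± 0.06 (adjusted p = 4.29e-07) and fell in koCARM1 by 0.28 (adjusted p = 4.94e-08). The response differed between koCARM1 and WT by −0.94 ± 0.05 on the log2 scale (interaction, adjusted p = 1.71e-10), and between shXBP1 and WT by −0.04 (adjusted p = 0.872). KRT8 rose in shXBP1 by 0.51 ± 0.10 (adjusted p = 0.000998), with 0.18 in WT (adjusted p = 0.0757, or 0.0299 without WT TM replicate 1) and −0.11 in koCARM1 (adjusted p = 0.0784). KRT19 rose in WT from 30 to 110 counts (ratio 4.07, 2.70 to 6.32, adjusted p = 0.000522). KRT7 fell slightly in koCARM1, by 0.12 (adjusted p = 0.00919), and KRT10 was higher in all 3 cell types (0.52, 0.40 and 0.28).

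CDH2 was not called with tunicamycin in any cell type, nor was EPCAM, with EPCAM differences of −0.05, 0.07 and −0.04 in WT, koCARM1 and shXBP1. CDH1 went from 4 to 17 counts in WT (ratio 4.72, 1.54 to 19.3, adjusted p = 0.0584), from 1 to 13 in shXBP1 (ratio 14.4, 2.16 to 611, adjusted p = 0.0245) and from 44 to 30 in koCARM1 (ratio 0.621, 0.377 to 1.01). The shXBP1 call was lost without shXBP1 ctr replicate 1 or 2 or shXBP1 TM replicate 1 or 3 (adjusted p 0.0543 to 0.0877). The WT ratio was called without WT ctr replicate 3 (adjusted p = 0.0378).

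SNAI2 fell with tunicamycin in WT by 0.57 (adjusted p = 1.48e-05) and in koCARM1 by 1.03 (adjusted p = 0.000341), and differed by −0.03 in shXBP1 (adjusted p = 0.783). The responses of shXBP1 and WT differed by 0.55 ± 0.10 (adjusted p = 0.00454), the 1 member called in that interaction, in which 2.04% of all genes were called (0.364% higher, 1.67% lower). VIM fell in WT by 0.15 (adjusted p = 0.0285), a call lost without WT ctr replicate 1 or 2 or WT TM replicate 3 (adjusted p 0.0732 to 0.165). It differed by −0.08 in koCARM1 (adjusted p = 0.0711) and by 0.07 in shXBP1 (adjusted p = 0.174). The koCARM1 difference was called without koCARM1 ctr replicate 3 or koCARM1 TM replicate 1 (adjusted p = 0.0209 and 0.0226). The VIM responses of koCARM1 and WT differed by 0.06 (adjusted p = 0.586). The VIM responses of shXBP1 and WT differed by 0.23 (adjusted p = 0.0645), or by 0.26 without WT ctr replicate 3 (adjusted p = 0.0179). ZEB1 fell in koCARM1 by 0.23 (adjusted p = 0.0172) and rose in shXBP1 by 0.20 ± 0.06 (adjusted p = 0.0202). The first call ended without koCARM1 ctr replicate 1 (adjusted p = 0.0647) and the second without shXBP1 ctr replicate 1 or 2 or shXBP1 TM replicate 2 (adjusted p 0.0658 to 0.088).

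Between koCARM1 and WT the response to tunicamycin differed for 4 of the 10 genes, all toward lower values in koCARM1 (22.9% of all genes called, 10.5% higher and 12.4% lower): KRT8, KRT18, CDH1 and ZEB1. The count was 1 without WT ctr replicate 1 or 2 or koCARM1 ctr replicate 1, and 2 without WT ctr replicate 3 or WT TM replicate 1 or 3. Of the 4, only KRT18 kept its call when each library in turn was left out, and KRT8, with an interaction of −0.31 ± 0.10 (adjusted p = 0.0287), lost it when WT ctr replicate 1, 2 or 3, WT TM replicate 2 or 3, koCARM1 ctr replicate 1 or 2 or koCARM1 TM replicate 2 or 3 was left out (adjusted p 0.0504 to 0.224). In koCARM1, 33 of the 57 mesenchymal genes fell with tunicamycin and 5 rose (of all genes, 18.8% lower and 20.6% higher). In WT 15 fell and 9 rose (of all genes, 19.9% lower and 22% higher). Of the 57, 17 differed between the responses toward lower values in koCARM1 and 5 toward higher. The epithelial list leaned the same way: of its 47 tested genes, 14 fell and 7 rose with tunicamycin in koCARM1, against 5 and 5 in WT. Between the responses, 8 of the 47 differed toward lower values in koCARM1 and 5 toward higher. The matricellular proteins CCN1 and CCN2 rose in WT (1.38 and 1.41) and shXBP1 (1.39 and 1.58) and fell in koCARM1 (by 0.48 and by 0.19), with interactions of −1.89 ± 0.06 (adjusted p = 9.66e-15) and −1.61 ± 0.10 (adjusted p = 3.85e-10). The collagen receptor DDR2 rose in all 3 (1.68, 1.58 and 1.60), but from unlike levels. Its ctr libraries held 4467 to 4886 counts in WT and 4799 to 5314 in shXBP1, and 29 to 55 in koCARM1.

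**Figure D5:**
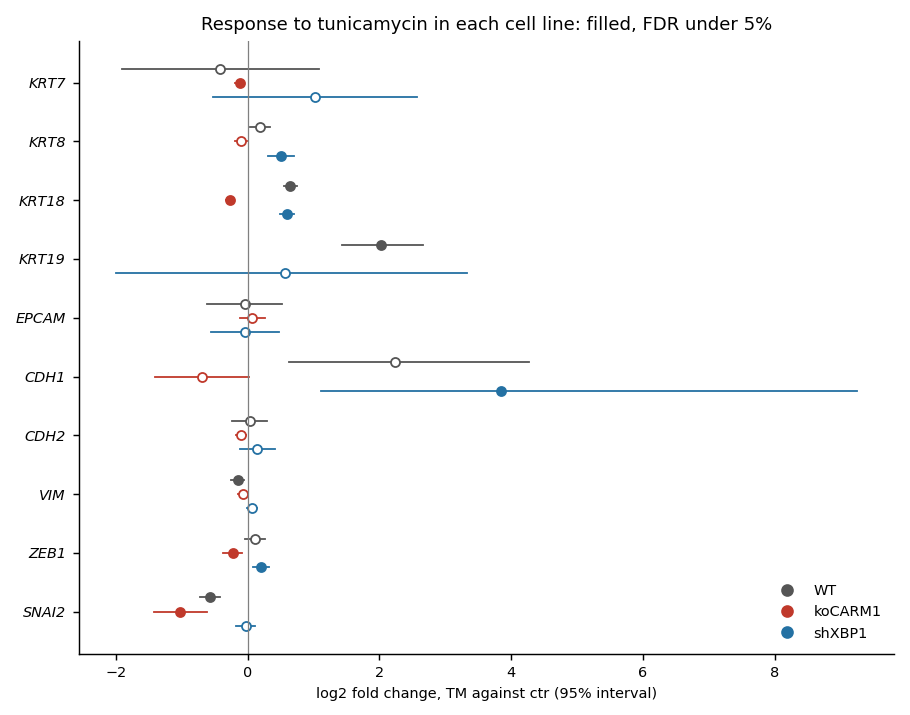
Log2 change with tunicamycin for the 10 genes in WT, koCARM1 and shXBP1, with 95% intervals (filled, adjusted p below 5%; KRT19 and CDH1 as ratios of summed counts with counting intervals; KRT19 in koCARM1 left out at 0 counts). KRT18 lies at 0.65 in WT, −0.28 in koCARM1 and 0.60 in shXBP1, and SNAI2 at −0.57, −1.03 and −0.03.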

How the data were processed

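The sources give total RNA of A1847 cells, made into 3′ mRNA libraries (Lexogen kit) and read as 75 nt single reads. The authors aligned reads with bowtie2 to hg19 and estimated gene counts with RSEM, as version 1.2.12 in the study's methods and 1.2.3 in the submitters' processing notes. The deposited table holds these expected counts as whole numbers for 57736 Ensembl genes in 18 libraries, and counting by strand was not given in the sources used here. Symbols were matched for 55501 of them. R 4.3.3 with edgeR 4.0.16 was used: genes with enough counts over all 18 libraries (filterByExpr, minimum 10) were kept, 17317 in all, libraries were scaled by TMM within the groups compared, and the quasi-likelihood test was run for 11 comparisons, with Benjamini-Hochberg adjustment over all tested genes and a call at 5%. CPM used TMM over all 18 libraries. SEs were the log2 fold change over the root of the F statistic. Ratios of low counts had 95% exact intervals, and a library at 0 was set to a floor of 3 counts. The genes, lists and tests were chosen with earlier results of these data known. Named list genes were the 3 most changed each way past the threshold with groups that did not overlap and mean log2 CPM of at least 1, plus regulators, and genes with at most 3 counts in every library of a group and at least 30 in each of the other. The code was tested on simulated data. DESeq2 1.42.0, library totals, other filters, a false discovery rate of 1%, a replicate block and leaving out each library were tried as alternatives.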

Additional observations from a re-analysis of the deposited data

Results flagged for a closer look

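The response to tunicamycin differed from that of WT, by the interaction test, for 4 of the 10 genes in koCARM1 and for SNAI2 in shXBP1. In koCARM1 the differences in log2 response were −0.94 for KRT18 (adjusted p = 1.71e-10), −0.31 for KRT8 (adjusted p = 0.0287), −0.36 for ZEB1 (adjusted p = 0.0235) and −2.80 for CDH1 (adjusted p = 0.0229). KRT18 rose in all 3 WT libraries above every control library and fell in all 3 koCARM1 libraries below theirs. The CDH1 value rests on 0, 1 and 3 counts in the WT control libraries and so depends on how low counts are handled. Left out singly, WT ctr replicates 1 and 2 and koCARM1 ctr replicate 1 each ended the calls of KRT8, ZEB1 and CDH1 together, leaving 1 of the 4, while the KRT18 call held without each of the 12 libraries in turn. In shXBP1 the SNAI2 response differed by 0.55 (adjusted p = 0.00454) and kept its call throughout these repeats. WT libraries serve in both interactions.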

How the results depend on the processing

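Across 11 comparisons, the counts of called genes among the 10 and in both lists moved by under 1.5 times under most alternatives, and no called difference of the 10 changed sign under any alternative. Requiring at least 10 counts in every library leaves fewer genes to test, and the epithelial count fell to 16 (koCARM1 against WT, ctr), 19 (TM), 17 and 18 (koCARM1 against shXBP1, ctr and TM), 2 (shXBP1 against WT, TM), 6 and 13 (tunicamycin in WT and koCARM1) and 5 (koCARM1 interaction), the mesenchymal count to 32, 31, 32 and 31 in the first 4 of these comparisons, 25 (tunicamycin in koCARM1) and 2 (shXBP1 interaction), and the count of the 10 was 2 in either interaction. At a rate of 1% the counts were 1 epithelial and 9 mesenchymal (shXBP1 against WT, ctr), 2 epithelial (TM), 2 of the 10 (tunicamycin in shXBP1), 1 of the 10 (koCARM1 interaction) and 1 mesenchymal (shXBP1 interaction). DESeq2 called 2 epithelial genes (shXBP1 against WT, TM) and 2 of the 10 (shXBP1 interaction). Scaling by library totals shifted the median of all genes by −0.2 and −0.181 between koCARM1 and WT and by −0.179 and −0.158 between koCARM1 and shXBP1, and called 7 of the 10 for tunicamycin in koCARM1 and 2 in either interaction; the cause was not tested. With no filter, or with all 18 libraries in the same fit, the shXBP1 interaction called 2 of the 10 and 1 epithelial gene, and with no filter 8 mesenchymal genes.

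Left out singly, libraries gave 1 to 5 epithelial and 9 to 16 mesenchymal genes (shXBP1 against WT, ctr), 2 to 4 epithelial (TM), 3 to 7 of the 10 for tunicamycin in koCARM1 (7 without koCARM1 TM replicate 1) and 2 to 4 in shXBP1 (2 without ctr replicate 1 or 2), 1 to 4 of the 10 in the koCARM1 interaction, and 1 to 2 of the 10, 0 to 1 epithelial and 1 to 4 mesenchymal in the shXBP1 interaction. In 4 such fits an uncalled difference changed sign, or went to 0, by more than its SE. ZEB1 between shXBP1 and WT under tunicamycin ranged from −0.12 to 0.022, the latter without WT TM replicate 1. Without shXBP1 TM replicate 1, KRT19 changed in 2 comparisons. Between koCARM1 and shXBP1 under tunicamycin it ranged from −4.04 to 0, where both groups then held 0 counts. With tunicamycin in shXBP1 it ranged from 1.34 to −3.09. CDH2 in the koCARM1 interaction ranged from −0.20 to 0.037, the latter without WT TM replicate 3. Smaller changes of sign were not counted, such as EPCAM between shXBP1 and WT under control condition (−0.30 to 0.17 over all alternatives). Among the single-gene differences, 18 gained and 26 lost a call under settings that kept every library, and 9 gained and 42 lost one with 1 library left out.

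Same-numbered replicates did not deviate together (r −0.048 to 0.0387 between their deviations), so the numbers were not taken as a pairing. With the replicate number as a block, the count of the 10 called was 10 and 9 (koCARM1 against WT, ctr and TM), 3 and 5 (shXBP1 against WT), 9 and 8 (koCARM1 against shXBP1), 5, 6 and 3 (tunicamycin in WT, koCARM1 and shXBP1), 4 and 1 (interactions), with KRT19 (shXBP1 against WT, ctr), CDH1 (koCARM1 against shXBP1 under TM, and tunicamycin in shXBP1) losing calls and KRT8 (tunicamycin in WT and koCARM1) and VIM (tunicamycin in koCARM1) gaining them. Depth limits KRT19 and CDH1, each under 50 counts in every library.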

Other observations

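As a description over libraries that share their groups, the log2 CPM of all other 17316 tested genes was set against that of CDH1 and VIM. Over all 18 libraries VIM ran closest to CDK6 (Pearson r = 0.994), MRPS5 (0.992) and PYGL (0.991), and 192 genes had r over 0.95. Over the 12 WT and shXBP1 libraries, in which koCARM1 plays no part, the closest were MAF (0.968), CDK6 (0.968) and PYGL (0.966). CDH1, at its low counts, ran closest to VMP1 (0.967), VAMP7 (0.962) and C7orf31 (0.96) over 18 libraries and to FBXO8 (0.988), TCIM (0.973) and ANXA5 (0.972) over 12. CDK6 and PYGL were thus listed for VIM in both sets of libraries. The 12 libraries are part of the 18 and only the closest genes were listed, so this is no second observation.
ESRP1, the splicing regulator, had 0 counts in every WT and shXBP1 library under control condition and 19 to 29 and 15 to 23 with tunicamycin, and went from 36 to 48 to 132 to 144 in koCARM1. In koCARM1 under tunicamycin, replicate 2 held most of the few counts of genes that were otherwise nearly absent there, with 11, 44 and 12 counts of POSTN, 15, 34 and 5 of COL1A2 and 3, 15 and 2 of PDGFRA in the 3 libraries.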
